A study of Stylophora pistillata with 6 samples.

Results

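The gene models described here are those of the coral *Stylophora pistillata* that carry no gene name in the study's annotated list of day/night differences and that had more reads at the end of the day than at the end of the night. They were chosen by the day/night values themselves. A member had a day mean of at least 5 reads per 1000000 reads of its library (CPM), a CPM in each of the 3 day libraries above that in each of the 3 night libraries, and a day to night ratio, (day mean + 0.5)/(night mean + 0.5), of at least 2. The rule found 74 gene models of the 25769 in the count table. Of the 74, 7 are on the study's list without a name and 67 are not on the list. Unnamed here means only that the list gives no name. The 67 may have names in annotations that were not used here. Every day/night value of the 74 below is therefore a description of how they were chosen, and no p-value is given for a member. Calls from fits across the whole table, which used the same contrast, are given later as a description only.

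The libraries came from tissue of the branch apex of microcolonies cut from 3 syngenic parent colonies, that is, colonies of the same genotype. The microcolonies recovered for 10 days and were held under 12 h of light, at 175 µmol photons m-2 s-1, and 12 h of dark, at 25 °C and a salinity of 38. The day group (3 libraries) was sampled 1 h before the light ended and the night group (3 libraries) 1 h before the dark ended. All 6 shared genotype, feeding regime, temperature and branch position. The time since the last feeding is not given, so a difference in it cannot be told apart from day and night. The labels give no link between a replicate number and a parent colony, and 1 time point per phase does not describe a daily curve.

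Predicted genes whose protein has no characterised relative are common in cnidarians. Some are restricted to a few related species, and secreted proteins of the coral skeleton matrix are known examples of this kind. In reef corals with symbiotic algae the light phase brings photosynthesis, raised oxygen in the tissue and faster calcification, while in the dark the tissue becomes low in oxygen, so that many coral transcripts are known to follow the daily cycle. The study's list describes 4 of its 7 unnamed members as resembling predicted or hypothetical proteins of the sea anemone *Nematostella vectensis* and gives no database match for the other 3. The sources used here give no function for any of the 74, and whether the 67 off the list resemble known proteins was not analysed here. Tissue and cell type were not checked by markers, since no names for gene models outside the list were used here. One coral gene with a name in the list, galaxin, a protein of the skeletal organic matrix, was read at 98.1, 130 and 102 CPM by day and 63.0, 68.4 and 53.4 CPM by night.

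Depth differed between libraries and sets the precision of all that follows. Reads of a library here are those counted on coral gene models, after the subtraction described below, and not all reads sequenced. The day libraries held 2833800, 1552480 and 6619275 such reads and the night libraries 3062255, 1916270 and 2621328. Thus 1 read was worth 0.353, 0.644 and 0.151 CPM by day and 0.327, 0.522 and 0.381 CPM by night. Counting error alone is 31.6% of a value that rests on 10 reads. CPM is not divided by transcript length, so levels are compared between libraries and not between gene models. Because the tissue was sampled in bulk, fewer cells that hold a transcript and less of it per cell cannot be told apart.

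The 74 gene models took 0.164%, 0.177% and 0.141% of the reads of the 3 day libraries and 0.0393%, 0.0452% and 0.0607% of those of the 3 night libraries. Most of them had few reads. Their median was 130.5 reads over the 6 libraries, against 465 for all unnamed gene models with a day mean of at least 5 CPM, and their day means ran from 5.12 to 444 CPM with a median of 10.1 CPM. A day mean under 10 CPM was found for 37 of them, and 3 were above 100 CPM. In 54 of the 74 at least 1 night library held fewer than 10 reads, in 17 at least 1 day library did, and in 4 a night library held none.

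The day to night ratio of the 74 had a median of 2.45 and ran from 2.00 to 32.4. It was at least 3 in 21 gene models, at least 4 in 8 and at least 5 in 5. The space between the groups was often small, because the lowest day CPM was a median of 1.33 times the highest night CPM and was less than 1.2 times it in 26 gene models. In 11 gene models the lowest day library was at least 2 times the highest night library. All 15840 unnamed gene models with a day mean of at least 5 CPM had a median ratio of 1.03. Of these, 1039 (6.56%) had all day libraries above all night libraries, and the 74 that also reached a ratio of 2 are 0.467%. A ratio of 2 or more was reached by 128, so that in 54 of those at least 1 night library was at or above a day library.

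**Figure D1:**
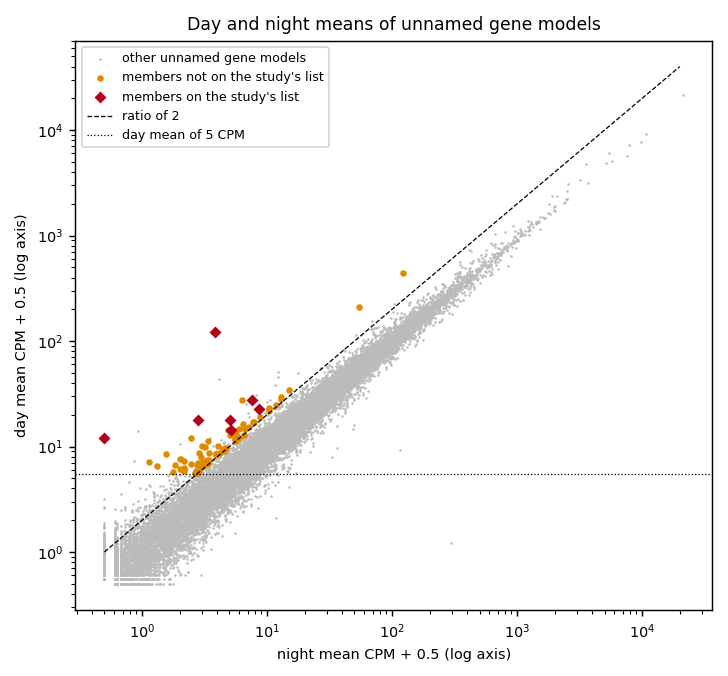
Day mean against night mean of unnamed gene models, in CPM + 0.5 on log axes, with 1 point per gene model. The dashed line marks a ratio of 2 and the dotted line a day mean of 5 CPM. The 74 chosen gene models lie above both lines, mostly at the low end of the axes, and Spis10472, at a ratio of 32.4, is the point farthest above the dashed line.

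The ratio threshold cut through a dense range. Just inside it were Spis8149 with a ratio of 2.0003, Spis3674 with 2.0036 and Spis9407 with 2.0044, and just outside it were Spis11360 with 1.9958, Spis18581 with 1.9738 and Spis24995 with 1.9731. At the CPM threshold, Spis18566 at 5.1177 CPM, Spis19923 at 5.1604 CPM and Spis4417 at 5.1628 CPM were the lowest day means inside, and Spis12545 at 4.9001 CPM, Spis25354 at 4.7668 CPM and Spis22745 at 4.536 CPM the highest outside. A further 109 unnamed gene models had separated groups and a ratio of 2 or more at a day mean under 5 CPM.

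The 7 members on the study's list were put there because they differed in these same libraries, so their large ratios are not independent evidence. Their median ratio was 3.65 and their median count 216 reads, against 2.28 and 119 reads for the 67 others, and their day libraries lay closer together, with a median coefficient of variation of 15.5% against 35.0%. Spis10472, which resembles a predicted protein of *N. vectensis*, had the largest ratio of the 74. It was read at 127, 96.0 and 145 CPM by day, from 361, 149 and 957 reads, and at 2.29, 4.17 and 3.43 CPM by night, from 7, 8 and 9 reads. The means were 123 ± 24.6 and 3.30 ± 0.952 CPM (SD, n = 3 each), and the lowest day library was 23.0 times the highest night library.

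Spis7860, for which no database match is given, was the only member without a night read. Its day CPM was 7.41, 10.3 and 16.8, from 21, 16 and 111 reads, and the 3 night libraries held 0 of 7599853 reads. If 3 counts are taken as the least that the pooled night reads could show, 0.395 CPM, its day mean of 11.5 ± 4.79 CPM (SD, n = 3) was at least 29.1-fold higher. Both values cover counting error only.

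Spis11328, also without a match, stood at 15.5, 18.0 and 19.0 CPM by day and at 1.63, 1.04 and 4.20 CPM by night. Its day mean was 17.5 ± 1.81 CPM and its night mean 2.29 ± 1.68 CPM (SD, n = 3 each), a ratio of 6.46. Night replicate 3 was the highest of its night libraries and remained far below the day range. Spis1000.t1, similar to a predicted protein, had 21.5, 33.5 and 26.4 CPM by day and 3.92, 10.4 and 6.87 CPM by night, a ratio of 3.65. Here replicate 2 was the highest library in both phases. Spis4363, similar to a hypothetical protein, had 19.1, 18.0 and 15.0 CPM by day and 3.59, 4.70 and 5.34 CPM by night, a ratio of 3.54.

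The 2 other listed members had smaller ratios. Spis13728, with no match, was read at 15.9, 11.6 and 14.0 CPM by day and at 4.25, 4.70 and 4.96 CPM by night, a ratio of 2.79 with narrow groups. Spis11569, similar to a predicted protein, was read at 21.5, 23.2 and 21.6 CPM by day and at 4.90, 7.83 and 11.4 CPM by night, a ratio of 2.64. Its day libraries were nearly equal (22.1 ± 0.938 CPM, SD, n = 3), and its night libraries spread over more than a 2-fold range. The list's only other unnamed entry that was higher by day had a ratio under 2 and is not a member.

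**Figure D2:**
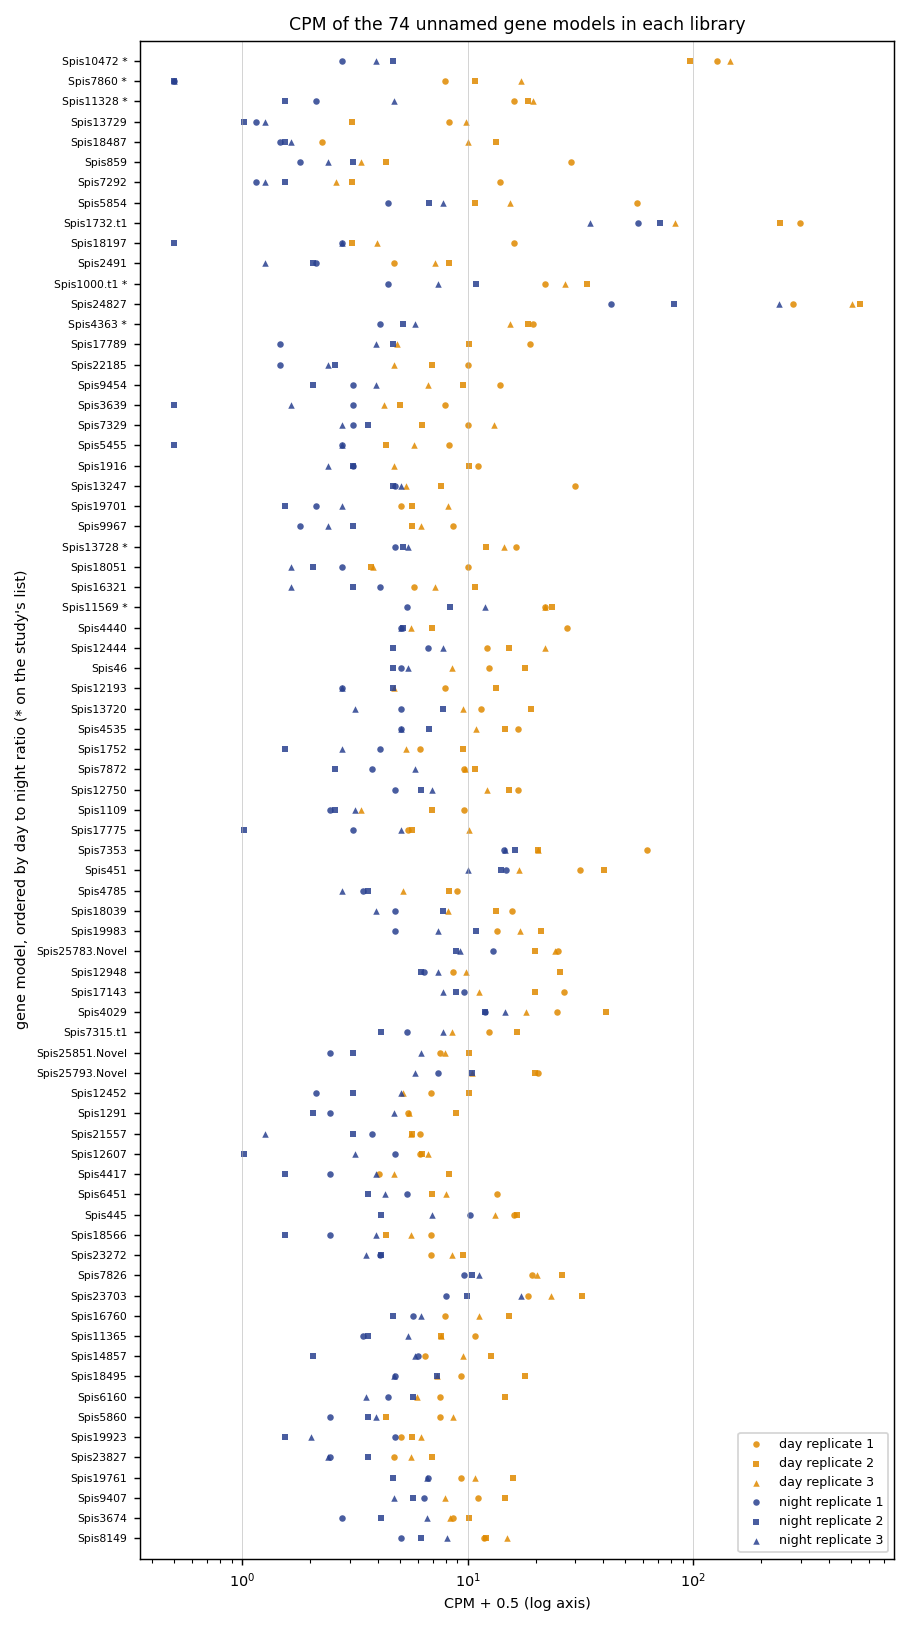
CPM + 0.5 on a log axis of each of the 74 gene models in each library, ordered from the largest ratio at the top to the smallest; orange marks day, blue marks night, and circles, squares and triangles mark replicates 1, 2 and 3. Stars mark the 7 gene models on the study's list. The gap between orange and blue is wide in Spis10472 and Spis7860 and nearly closed in the lower rows, and Spis859 shows 1 day library far to the right of the other 5.

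Among the 67 not on the list, several of the largest ratios rested on few reads or on 1 library. Spis13729 had 7.76, 2.58 and 9.37 CPM by day, from 22, 4 and 62 reads, and 0.653, 0.522 and 0.763 CPM by night, from 2, 1 and 2 reads, a ratio of 6.17. Spis18487 had 1.76, 12.9 and 9.52 CPM by day, from 5, 20 and 63 reads, and 0.980, 1.04 and 1.14 CPM by night, from 3, 2 and 3 reads, a ratio of 5.50. The night values of both were near the worth of a few reads, and 1 day library of each was much nearer to the night range than the other day libraries. Spis2491, which was named after its values were seen, had a smaller spread, with 4.23, 7.73 and 6.65 CPM by day and 1.63, 1.57 and 0.763 CPM by night, a ratio of 3.68. These values are what remained after the reads of longer IDs were taken off, as described below.

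In both members with the most reads, the lowest library had the same replicate number by day and by night. Spis24827 was read at 276, 549 and 507 CPM by day and at 42.8, 81.9 and 240.3 CPM by night, so that night replicate 3 came close to day replicate 1. Its means were 444 ± 147 and 122 ± 105 CPM (SD, n = 3 each), a ratio of 3.64. Spis1732.t1 was read at 297, 243 and 82.5 CPM by day and at 56.5, 70.4 and 34.3 CPM by night, a ratio of 3.84, with replicate 3 the lowest in both phases. Day replicate 3 lay little above night replicate 2 in this gene model. Others among the 10 highest day means had smaller ratios. Spis451 had 31.1, 39.9 and 16.5 CPM by day and 14.4, 13.6 and 9.54 CPM by night, a ratio of 2.28, also after the reads of longer IDs were taken off. Spis4029 had a ratio of 2.18. The member with ID number 25783, whose ID goes on with a word and is given here by its number alone, had 24.7, 19.3 and 23.9 CPM by day and 12.4, 8.35 and 8.77 CPM by night, a ratio of 2.24. In Spis23703 night replicate 3, at 16.8 CPM, almost met day replicate 1, at 18.0 CPM, at a ratio of 2.10.

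Of the 74 gene models, 8 had a value in day replicate 1 at least 2.5 times that in each of the other 5 libraries, the other 2 day libraries included. In Spis859 day replicate 1 stood at 28.2 CPM, while day replicates 2 and 3 stood at 3.86 and 2.87 CPM and the night libraries at 1.31, 2.61 and 1.91 CPM. Its day mean of 11.7 ± 14.4 CPM (SD, n = 3) thus had an SD larger than itself, and its ratio of 4.98 was 1.58 without day replicate 1. Spis7292 had 13.4, 2.58 and 2.12 CPM by day and 0.653, 1.04 and 0.763 CPM by night, and its ratio of 4.95 was 2.16 without that library. Spis5854 had 55.8, 10.3 and 15.0 CPM by day and 3.92, 6.26 and 7.25 CPM by night, and its ratio of 4.36 was 2.08 without it. Spis18197 had 15.5, 2.58 and 3.47 CPM by day and 2.29, 0 and 2.29 CPM by night, and its ratio fell from 3.80 to 1.74. In all of these the other 2 day libraries lay nearer to the night range than to day replicate 1.

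Spis7353, at 62.1, 20.0 and 19.9 CPM by day and 14.0, 15.7 and 14.1 CPM by night, had a ratio of 2.28 that was 1.35 without day replicate 1. The remaining 3, Spis4440, Spis13247 and Spis18051, which were named after their values were seen, showed the same shape, and their ratios of 2.62, 2.95 and 2.71 were 1.23, 1.34 and 1.74 without it. The ratio of Spis4440 came from 27.2, 6.44 and 5.14 CPM by day and 4.57, 4.70 and 4.58 CPM by night. Without day replicate 1, 7 of the 8 no longer met the rule, and Spis5854 did. Such an excess in day replicate 1 was found in 38 of all 15961 gene models whose day mean reached 5 CPM (0.238%), against 7 in day replicate 2 and 1 in day replicate 3. With the night mean held to the same minimum, it was found in 0, 2 and 1 gene models in night replicates 1, 2 and 3. None of the 38 is on the study's list. The list was called from these same libraries, where a wide spread within a group weighs against a call, so this absence is not independent evidence. What set these transcripts high in that library was not tested. The 1 member with such an excess in day replicate 2 was Spis12948, also named after its values were seen, at 8.12, 25.1 and 9.37 CPM by day and 5.88, 5.74 and 6.87 CPM by night.

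**Figure D3:**
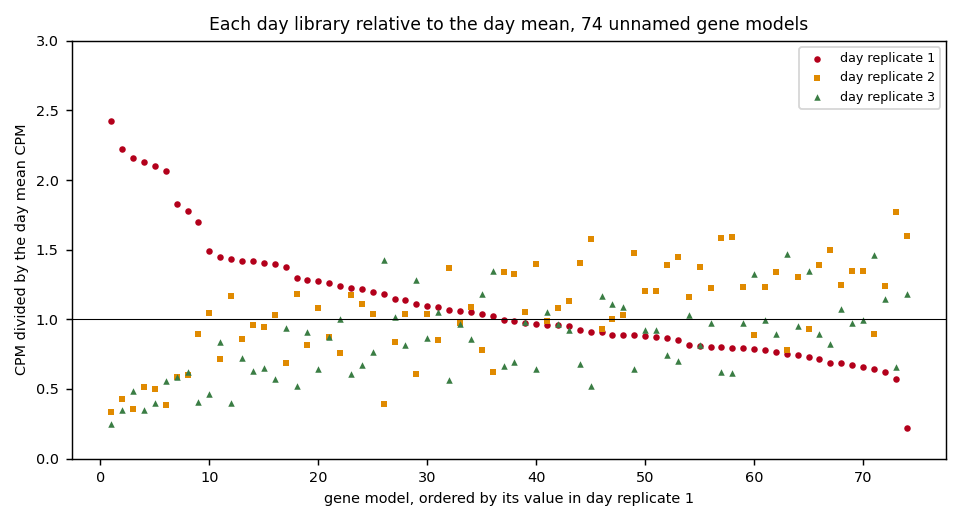
CPM of each day library divided by the day mean of that gene model (linear axis), with the 74 gene models ordered by their value in day replicate 1. The points at the left edge show the gene models with the excess in day replicate 1, with day replicates 2 and 3 below the line at 1. The last point at the right is Spis18487, where day replicate 1 was the low library.

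More broadly, the highest day value was in replicate 1 for 30 of the 74 (40.5%), in replicate 2 for 32 (43.2%) and in replicate 3, the deepest library, for 12 (16.2%). Over all unnamed gene models with a day mean of at least 5 CPM these shares were 26.2%, 33.5% and 40.4%. In the 39 named gene models of the list that met the same rule they were 38.5%, 28.2% and 33.3%. Day replicate 3 was the lowest day library in 33 of the 74 (44.6%), against 28.8% of all unnamed gene models and 15.4% of the named ones. The highest night value was in night replicate 3 for 34 (45.9%), in night replicate 2 for 22 (29.7%) and in night replicate 1 for 18 (24.3%). In the same order these shares were 35.6%, 28.8% and 35.6% over all unnamed gene models. They were 48.7%, 15.4% and 35.9% over the named ones. The spread of the day libraries had a median coefficient of variation of 34.2%, from 4.25% to 123%, and the night libraries one of 33.6%. With medians of 3 in place of means, an alternative chosen after seeing the data, 54 of the 74 had a ratio of at least 2. The median ratio of the 74 within a same-numbered day and night pair was 2.79 for replicate 1, 2.87 for replicate 2 and 1.88 for replicate 3. A ratio of at least 2 in each of the 3 pairs was found for 15 of the 74, of which 6 are on the list; Spis11569 is the listed member outside it.

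How these gene models stood in a fit across the whole table is given only as a count, since the rule used the same contrast. Of the 24180 gene models with a read, edgeR's quasi-likelihood test with Benjamini-Hochberg adjustment over all of them called 62 higher by day at an adjusted p under 0.05, which is 0.256%, and 12 of the 74 were among them. The 12 were the 7 on the list and Spis7329, Spis12444, Spis13729, Spis18487 and number 25783. None of the 8 with the excess in day replicate 1 was called in this fit. Spis5854 was called by DESeq2 without a block, which called 64 of 24180 gene models higher by day. With the replicate number as a block, edgeR called 209 gene models higher by day (0.864%), 42 of the 74 among them, and DESeq2 with the block called 56 (0.232%), 7 of the 74 among them. The edgeR fit with the block called 7 of the 8 with the excess in day replicate 1. Spis10472, Spis7860, Spis11328, Spis1000.t1 and Spis4363 were called in all 16 fits run. Spis13729 was called in 13, Spis11569 in 11, Spis13728 in 10, Spis7329 and Spis12444 in 6, and Spis18487 and number 25783 in 5. For 32 of the 74 no fit gave a call. How many of all gene models were called in every fit or in none was not counted, so these numbers have no share beside them. The 16 fits reuse the same libraries, so their agreement is not independent. An edgeR fit with a stricter read filter and limma-voom each tested only 66 of the 74. Spis13729 and Spis18487 were not among these, and a gene model not tested is counted here as not called. Where DESeq2 gave no adjusted p, a gene model is also counted as not called, so its 24180 are those entered.

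To see how such a choice carried over to libraries it had not used, the rule was applied to 4 libraries and the chosen gene models were read in the same-numbered pair left out. The sets chosen in this way are not the 74, because in the 74 the left-out pair had to be higher by day. The shares and medians of all unnamed gene models cover those with a day mean of at least 5 CPM in the choosing libraries. They numbered 15839, 15710 and 15827 and were not matched to the chosen ones for read number. Chosen without replicate 1, 95 of 126 unnamed gene models (75.4%) were higher by day in the pair left out, where 47.3% of all unnamed gene models were. Their median ratio fell from 2.25 in the libraries that chose them to 1.40 in the pair left out, and 32 (25.4%) kept a ratio of at least 2, which 3.25% of all unnamed gene models reached. Chosen without replicate 2, 93 of 129 (72.1%) were higher by day, against 49.8% of all, with a median ratio of 2.42 and then 1.37, and 36 (27.9%) kept a ratio of at least 2, against 3.47% of all.

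Chosen without replicate 3, the deepest day library, 156 of 274 (56.9%) were higher by day in the pair left out, against 61.0% of all unnamed gene models. Their median ratio fell from 2.35 to 1.10, where all unnamed gene models had 1.07, and 30 (10.9%) kept a ratio of at least 2, against 1.32% of all. Together 344 of 529 choices (65.0%, SD over the 3 pairs 9.85 percentage points) were higher by day in the pair left out. Replicate 3 thus gave another picture than replicates 1 and 2 on the direction, while in each pair some gene models kept a large ratio. The choices share libraries and gene models with each other, so these shares are given without a test. Of the 74, 27 were chosen in all 3 rounds, 40 in exactly 2 and 7 in exactly 1.

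**Figure D4:**
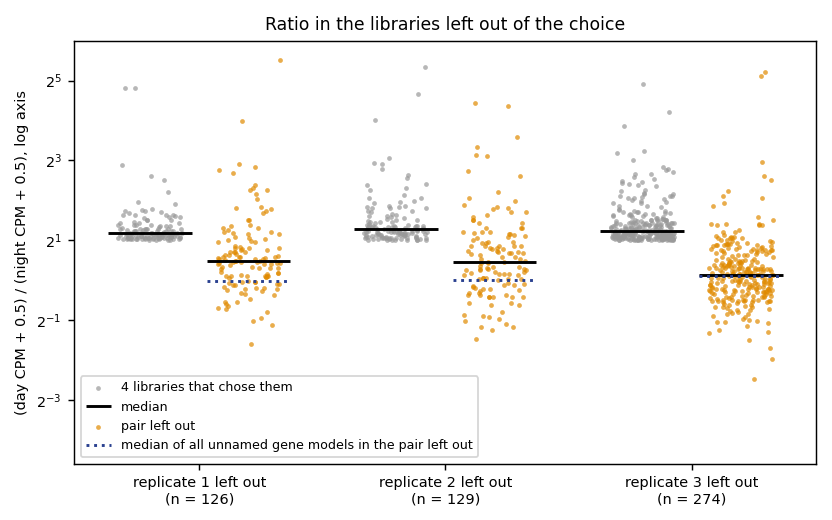
Ratio of day to night CPM, on a log axis, of the unnamed gene models chosen with 1 same-numbered pair left out (126, 129 and 274), in the 4 libraries that chose them (grey) and in the pair left out (orange). Black lines mark medians. Dotted lines mark the median of all unnamed gene models in the pair left out. These had a day mean of at least 5 CPM in the 4 choosing libraries. Medians left out are 1.40, 1.37 and 1.10, and the last lies next to its dotted line.

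The IDs carry running numbers, and the sources used here do not say whether their order follows position in the genome. The 74 had 148 gene models with the number just before or after their own, of which 98 had a day mean of at least 5 CPM. Among these 98 were 2 members, Spis13728 and Spis13729, which follow each other. Of the 96 that are not members, 6 (6.25%) had all day libraries above all night libraries, against 6.86% of all gene models with such a day mean, and their median ratio was 1.05. Only 2 of the 6 reached a ratio of 2, and both have names. Spis5859 is named MMP19, a matrix metalloproteinase, an enzyme family that cuts extracellular matrix. It was read at 16.9, 22.5 and 38.8 CPM by day and 7.84, 8.87 and 11.4 CPM by night, a ratio of 2.69. The member next to it in number, Spis5860, had 7.06, 3.86 and 8.16 CPM by day and 1.96, 3.13 and 3.43 CPM by night, a ratio of 2.05, and replicate 3 was the highest in both phases of both gene models.

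Spis19922 is named HSP68, a heat shock protein of the HSP70 chaperone family, which helps other proteins fold. It was read at 10.9, 8.37 and 9.97 CPM by day and 2.29, 1.04 and 3.05 CPM by night, a ratio of 3.91. The member next to it, Spis19923, had 4.59, 5.15 and 5.74 CPM by day and 4.25, 1.04 and 1.53 CPM by night, a ratio of 2.04, with night replicate 1 almost at the level of day replicate 1. Whether such neighbours are parts of 1 transcript, overlapping models or separate genes cannot be told from the count table. Among the members, the pairs Spis445 and Spis451, Spis5854 and Spis5860, Spis12444 and Spis12452, Spis13720 and Spis13728, Spis18487 and Spis18495, and numbers 25783 and 25793 lay within 10 numbers of each other.

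**Figure D5:**
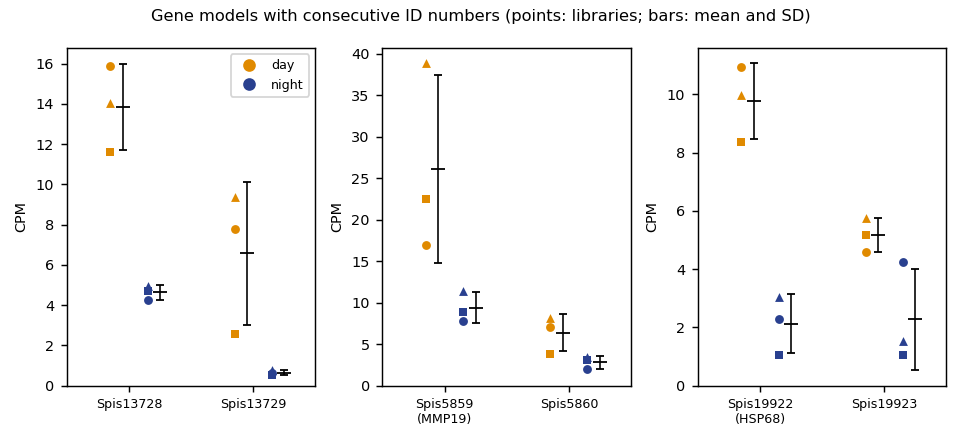
CPM (linear axes from 0) of 3 pairs of gene models with consecutive ID numbers; points are libraries (circle, square and triangle for replicates 1, 2 and 3), and black bars give mean and SD of 3 libraries. Day points lie above night points in all 6 gene models, with the smallest gap in Spis19923, between 4.25 CPM by night and 4.59 CPM by day.

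Of the 74, 9 have an ID with which longer IDs begin, and in the deposited table such a row also holds the reads of those longer IDs. The rule was applied after those reads had been taken off. On the values as deposited it found 15 unnamed gene models, 10 of them among the 74 and none of these 10 among the 9. Spis46, an extreme case named after its values were seen, shares its start with 110 longer IDs. Its deposited counts were 18020, 9842 and 43256 by day and 20535, 12944 and 15942 by night, of which 34, 27, 53, 14, 8 and 13 reads remained, a ratio of 2.56. The deposited counts of Spis859 were 827, 359 and 1623 by day and 693, 420 and 542 by night, of which 80, 6, 19, 4, 5 and 5 reads remained. Spis445, Spis451 and Spis2491 are also among the 9. Spis2491 was deposited with 338, 171 and 695 counts by day and 320, 232 and 243 by night. Of these, 12, 12, 44, 5, 3 and 2 reads remained. Spis451 was deposited with 57514, 47792 and 99027 counts by day and 49496, 45157 and 66780 by night. Of these, 88, 62, 109, 44, 26 and 25 reads remained. The values of these 9 gene models therefore depend on the subtraction.

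Set beside named gene models chosen by the same thresholds, the unnamed ones had fewer reads. Of the 133 named gene models on the study's list, 39 met the rule, with a median ratio of 2.94, a median day mean of 81.0 CPM and a median of 1096 reads, against 2.45, 10.1 CPM and 130.5 reads for the 74. Their day libraries had a median coefficient of variation of 20.4%, against 34.2%. All 39 had already been called different by the study in these libraries and most of the 74 had not, so the 2 sets differ by how they were picked. Turned around to the night, the rule found 58 unnamed gene models of the 15772 with a night mean of at least 5 CPM, with a median night to day ratio of 2.36, from 2.00 to 247, and a median night mean of 10.0 CPM. In both directions most gene models lay near the threshold at low read numbers.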

How the data were processed

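RNA of 3 day and 3 night libraries was sequenced on SOLiD. The authors mapped single-end reads to the longest coding sequence of each coral gene model, taken from the reefgenomics site, and deposited raw counts per gene model. Bowtie 1.2.3 and DESeq2 are named in the submitters' processing notes. No genome coordinates were used. A row whose ID begins longer IDs also held their reads, which were subtracted, longest first. CPM is reads divided by the column total. Depth, as the column total after the subtraction, was 1552480 to 6619275 reads. Members and lists were chosen with earlier results of these data known.

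Fits across 24180 gene models used edgeR 4.0.16 (quasi-likelihood, TMM, minimum of 1 read), with DESeq2 1.42.0 and limma 3.58.1 as alternatives. The limma fit used a stricter read filter and covered 17122 gene models. The edgeR fit was run on simulated counts without replicate pairs, and the alternatives were not simulated. The subtraction was run on simulated counts nested by the same ID rule. That checks its arithmetic and cannot show that the deposited rows are nested in this way. Deviations of same-numbered day and night libraries from their group means correlated at 0.24, 0.19 and 0.37 over 14262 gene models (different numbers, -0.28 to 0.09). The numbers were therefore read as pairs in the left-out rounds, the within-pair ratios and the fits with a block. Neither the rule nor the main edgeR fit used the pairs. The pairing rests on these same libraries and not on the labels. Nothing says that libraries of a group came from separate colonies, so calls measure the spread between these libraries.

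Gene models were named if they were listed without a name, among the 10 largest ratios or the 10 highest day means, next to a threshold, next in ID number, or without night reads; exceptions are stated. No sequence is printed, since the reference table used here did not match these IDs.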

Additional observations from a re-analysis of the deposited data

How the results depend on the processing

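The rule found 74 unnamed gene models. It found 15 on the values as deposited, 37 with a day mean of at least 10 CPM, 122 with at least 2 CPM, 325 with a ratio of at least 1.5, 21 with a ratio of at least 3 and 7 when only the study's list was searched. Leaving out libraries gave 89 to 274: the count was 89 when day replicate 1 was dropped, 207 for day replicate 3, 120 for night replicate 2, 149 for night replicate 3 and 274 for replicate 3 of both groups. Of the 74, 17 no longer met the rule without day replicate 1, 23 without day replicate 2 and 5 without day replicate 3. The count stayed within 1.5 times 74 with TMM or RLE scaling (67 each) and with a constant of 0 (88) or 1 (56) in place of 0.5. It also did so with medians in place of means (69, chosen after seeing the data) and with libraries thinned to equal depth (100). A similar count did not mean the same gene models. TMM and RLE scaling each kept 66 of the 74, medians 51 and thinning 48. Only 35 of the 74 were kept under TMM, RLE, medians and thinning together. Separation within same-numbered pairs, a replicate block, gave 97.

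The number of the 74 called by edgeR was 12, where 62 of all 24180 gene models were called higher by day. Limma-voom called 5, and 26 of the 17122 gene models it tested, which held 66 of the 74. With the replicate block the number was 42 in edgeR (209 of 24180 gene models) and 7 in DESeq2 (56 of the 24180 entered). Leaving out a library gave 6 to 25. The number was 25 without day replicate 3 (128 of 23963 gene models). It was 6 without night replicate 1 (33 of 24030) or 2 (32 of 24086). The causes were not tested. At a median of 28 night reads per gene model over 3 libraries, a ratio near 2 is imprecise, and gene models that differ less, or are read less, are not shown to be the same by day and night.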
